A study of Mus musculus with 7 samples.

Results

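Rb-depleted secondary cells were compared with the Rb-depleted primary cells from which they were derived, across all mouse miRNAs of the deposited table. The members were chosen by their labels and not by their values: 3 arrays of secondary cells and 2 of Rb-depleted primary cells, which are 5 of the 7 arrays of the series. All cells came from soft tissue sarcomas of p53-null mice, all of the 5 arrays hold cells that carry the same shRNA against Rb (shRb1) after selection with puromycin, and the other 2 arrays hold primary cells with a non-target shRNA (control primary cells). Secondary cells had been grown in serum-free methylcellulose with EGF, bFGF and B27 on low-attachment plates for 10 to 14 days, had formed spheres, and had then been put back into 2-dimensional culture. Primary cells had stayed in monolayer culture with serum. The comparison therefore asks which miRNAs differ after passage through spheres in cells that all lack p53 and have reduced Rb. Control cells passaged through sphere culture were not analysed here, a single shRNA was used, and the arrays have no probe for the Rb mRNA, so the depletion was not checked. The series describes its replicates as independent experiments without saying whether they came from separate transductions, and the p-values measure the spread between these arrays.

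A miRNA is a short RNA cut from 1 arm of a hairpin precursor, and it lowers the output of mRNAs that pair with its seed, the stretch from base 2 to base 8. MiRNAs with the same seed share many targets and form a family, whereas miRNAs cut from neighbouring hairpins of 1 transcript form a cluster. Sarcoma cells are mesenchymal, a state in which miR-199, miR-214, miR-143, miR-21 and miR-22 are usually abundant and the miR-200 family is silent. Families known for a brake on growth, such as let-7, miR-34, miR-101 and miR-29, stand beside growth-promoting ones such as the miR-17 cluster.

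The deposited level of a miRNA is the log2 of the summed brightness of its probes after quantile normalization, in which each rank on an array receives the same number on every array. All levels and differences below are on this log2 scale unless the text says that the scanner signal before normalization was used. The scanner software detected 285 and 287 of 696 mouse miRNAs on the Rb-depleted primary arrays, and 258, 276 and 283 on the secondary arrays, and the table holds those detected on all 7 arrays. The number of arrays limits the precision. Before normalization the median miRNA was lower by 0.18 in secondary cells, so each change is relative to that shift, and in a bulk sample fewer cells with a miRNA and less of it per cell cannot be told apart. The arrays lay on 2 slides: slide 1 held all 4 arrays of primary cells and secondary replicate 1, and slide 2 held secondary replicates 2 and 3. Of 14 mesenchymal marker miRNAs on the array, 12 were detected on all 5 arrays, with miR-21 the brightest, while 0 of 12 epithelial markers were detected on any of them. Of 22 markers of pluripotent cells, 21 were undetected on all 5 arrays, and 0 of 7 haematopoietic markers were detected on all of them.

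In limma's test, 51 miRNAs (20.2% of those tested) had a Benjamini-Hochberg adjusted p under 0.05, of which 32 were higher in secondary cells (12.7%) and 19 were lower (7.54%). At an unadjusted p under 0.05 stood 102 miRNAs (40.5%). The rises ran from 0.30 to 3.35 and the falls from -0.31 to -2.30, and 10 rises and 7 falls were at least 2-fold. In all 51 the 3 secondary arrays lay beyond both Rb-depleted primary arrays. Of all miRNAs tested 51.2% had such separate groups, 68 with the secondary arrays higher (27%) and 61 with them lower (24.2%). The 3 secondary arrays also lay beyond both control arrays in 27 of the 32 higher and 16 of the 19 lower miRNAs. The share over all miRNAs tested was not counted for this, so nothing is read from these counts. The differences of the 20 brightest miRNAs of secondary cells lay between -0.82 and 0.60, and 5 of them passed, namely miR-199a-3p, miR-29b and miR-720 upward and miR-2138 and miR-2145 downward. Of the called miRNAs, 48 had at least 2 different probes with usable signal, and in all 48 every such probe moved in the direction of the call once the shift of the median miRNA was taken off. Before that, a probe of miR-29b (-0.01) and a probe of miR-574-3p (-0.07) lay the other way. The level of a miRNA is the sum of its probes, so this agreement is not separate support, and uncalled miRNAs were not counted.

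**Figure D1:**
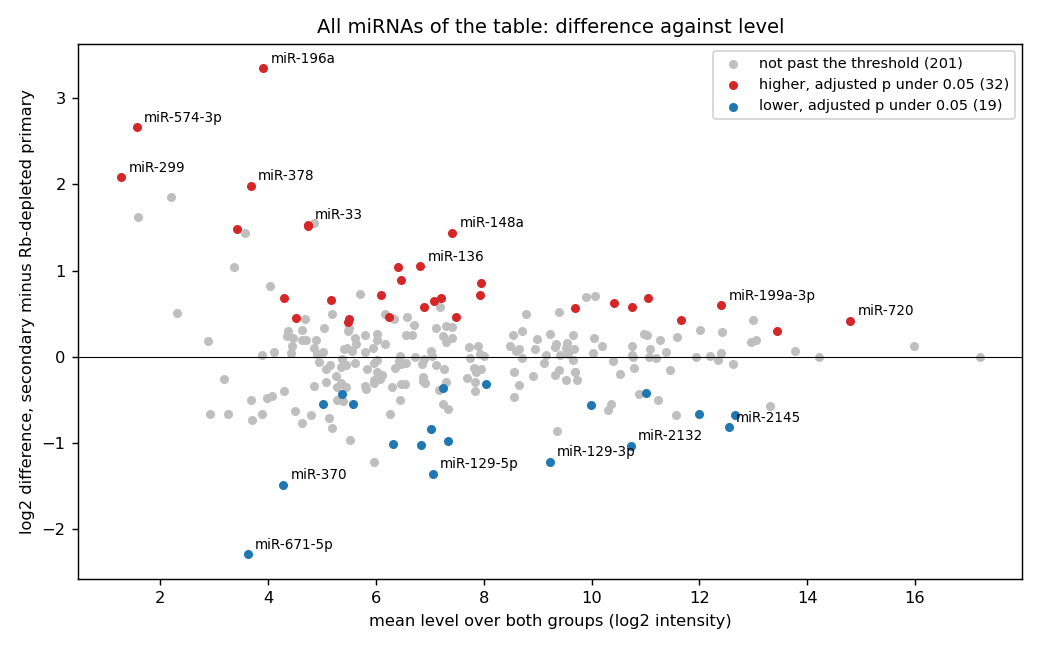
The log2 difference of each miRNA of the table (vertical axis, secondary minus Rb-depleted primary cells) is plotted against its mean log2 level over the 2 groups (horizontal axis). Red points are the 32 called higher, blue points the 19 called lower and grey points the 201 that did not pass. The rises over 1.6 among the called miRNAs lie at the low end of the intensity scale, and those at a mean level over 10 moved by less than 1.1.

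Slide and secondary culture overlap in this design, and the values by slide are as follows. Secondary replicate 1 shared a slide with the primary cells, and, as separate groups require, it lay beyond both Rb-depleted primary arrays in every miRNA called higher or lower. Its difference was larger than the mean of the other two secondary arrays in 18 of the 32 higher and in 4 of the 19 lower miRNAs. Slide 1 held 1 secondary array, so a fit on its 5 arrays holds no spread among secondary cultures. Only its differences are given here, and their median over all miRNAs was 0.03. With slide as a term, 0 miRNAs passed in limma's test, with 67 at an unadjusted p under 0.05. Slide 2 held secondary cells alone, so no comparison could be made within it. The count also changed with single arrays. Without Rb-depleted primary replicate 2, 2 miRNAs (0.794%) passed, miR-136 (difference 0.99, adjusted p = 0.0346 by limma) and miR-34a (difference 2.05, adjusted p = 0.0197). Without replicate 1 of those cells 30 passed (11.9%), without either control array 19 (7.54%), and without secondary replicates 1, 2 and 3 the counts were 17 (6.75%), 66 (26.2%) and 18 (7.14%).

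**Figure D2:**
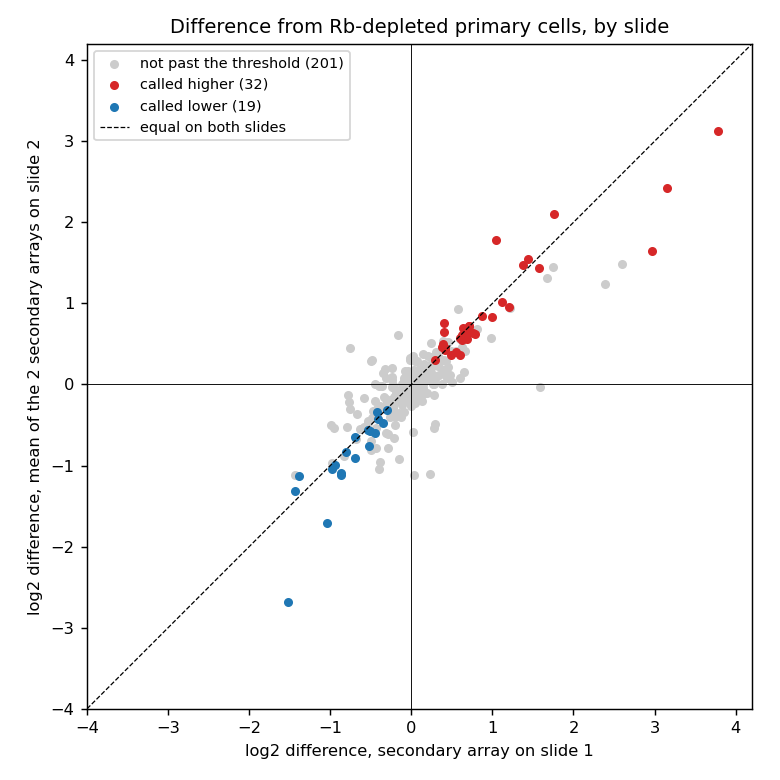
Each point is 1 miRNA of the table, with the log2 difference of the secondary array on slide 1 from the mean of the Rb-depleted primary arrays on the horizontal axis and that of the 2 secondary arrays on slide 2 on the vertical axis. The 51 called miRNAs (red higher, blue lower) lie in the upper right and lower left corners, around the dashed line of equal differences. MiR-671-5p is the blue point farthest below it (-1.52 on slide 1, -2.68 on slide 2), and the red point of miR-299 lies farther from it still (2.97 and 1.64).

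RefSeq (GRCm38.p6) holds the mature sequence of 198 miRNAs of the table under the scanner's name, and 63 of these fall into 23 seeds shared by 2 or more miRNAs of the table. In 3 of the 23 every miRNA with a sequence passed the threshold, and all of them rose. Their calls depended on the fit. Of the 21 other fits that were made, miR-148b passed in 12, miR-34a in 10, and miR-148a and miR-152 in 9 each. MiR-34b-5p passed in 6, miR-19b in 5 and miR-19a in 4. MiR-34c, of the miR-34 family, had no sequence to match and did not pass, so it is not counted in its family's seed here. The miRNAs of these 3 seeds are shown here first because they share the targets that a seed selects, with the seed in capitals.
miR-148a: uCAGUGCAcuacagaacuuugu
miR-148b: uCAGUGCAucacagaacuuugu
miR-152: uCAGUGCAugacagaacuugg
miR-34a: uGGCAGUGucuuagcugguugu
miR-34b-5p: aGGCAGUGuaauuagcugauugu
miR-19a: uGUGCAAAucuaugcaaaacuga
miR-19b: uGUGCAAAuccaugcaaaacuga

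The family of miR-148 and miR-152, known for its pairing with the mRNA of the DNA methyltransferase Dnmt1, rose in all 3 of its members. MiR-148a had levels of 6.65 and 6.74 on the primary arrays with Rb depleted and of 8.07, 7.58 and 8.76 on the secondary arrays. The difference of 1.44 (SE 0.35) had an adjusted p of 0.0413 by limma, and control cells, at 6.58 and 6.92, were close to the primary level. For miR-152 the primary arrays read 7.58 and 7.45 and the secondary arrays 8.38, 8.004 and 8.72, a difference of 0.85 (SE 0.21, adjusted p = 0.0428 by limma). The levels of miR-148b were closer together, 5.99 and 6.02 against 6.396, 6.55 and 6.45, with a difference of 0.46 (SE 0.08, adjusted p = 0.0176). On slide 1 the differences of miR-148a and miR-152 were 1.37 and 0.87. These 3 hairpins lie apart in NCBIM37, the build of the scanner files. Mir148a is at chr6:51219811-51219909 outside any annotated host gene, Mir148b is at chr15:103115556-103115652 in an intron of Copz1, and Mir152 is at chr11:96711707-96711779 in an intron of Copz2, both hosts being subunits of the coatomer. The related seed of miR-130a and miR-301a, which were counted with this family, showed differences of 0.09 and 0.10 with overlapping arrays, so that 3 of 5 miRNAs of the combined list rose and 0 fell.

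MiR-34 is the family best known as a direct target of p53, and here it was measured in cells without p53. Of 5 miRNAs in the list of p53-responsive miRNAs, 2 rose and 0 fell, and the list's median difference was 0.57 against 0.02 over all miRNAs tested. MiR-34a was at 3.44 and 4.52 in primary cells with Rb depleted and at 5.42, 5.401 and 5.66 in secondary cells, a difference of 1.51 (SE 0.32, adjusted p = 0.0307 by limma) that was 1.44 on slide 1. Both control arrays, at 4.44 and 4.58, were near the higher of the primary values, and without Rb-depleted primary replicate 1 the difference was 0.97, and without replicate 2 it was 2.05. MiR-34b-5p was at 7.51 and 7.64 in primary cells and at 8.28, 8.03 and 8.55 in secondary cells (difference 0.72, SE 0.17, adjusted p = 0.0413). MiR-34c, from the hairpin next to that of miR-34b, had a difference of 0.57 (SE 0.20) and an adjusted p of 0.0844 by limma, with arrays that did not overlap. The other members of the list, miR-107 and miR-145, had differences of -0.27 and -0.08.

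MiR-19a and miR-19b carry much of the growth-promoting activity of the miR-17 cluster. They were the 2 of 14 miRNAs of the miR-17 family and its clusters that rose, a share near the 12.7% of all miRNAs. In that list 0 fell, and its median was 0.00. The level of miR-19a was 9.37 and 9.44 in primary cells and 9.81, 10.10 and 9.99 in secondary cells (difference 0.56, adjusted p = 0.0476 by limma). For miR-19b, 11.51 and 11.39 compared with 11.82, 11.99 and 11.82 (difference 0.43, adjusted p = 0.0307), although before normalization its signal differed by 0.09 and the arrays overlapped. From the same transcript miR-17 had a difference of -0.29. Within an array, where scaling cannot enter, the log2 ratio of the signal of miR-19a to that of miR-17 was 2.37 and 2.58 in primary cells and 3.25, 3.29 and 3.27 in secondary cells. The ratio was thus higher on all 3 secondary arrays, and the control arrays lay between the groups at 2.72 and 2.85. That order followed from the values of the pair, which had separate arrays in opposite directions, so it is not separate support.

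The 12 largest rises and the 12 largest falls are plotted by array, and the sequences of those described next are given with their seeds in capitals, since each stands for its own set of targets.
miR-196a: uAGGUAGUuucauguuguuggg
miR-33: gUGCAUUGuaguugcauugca
miR-101a: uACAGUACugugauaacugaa
miR-101b: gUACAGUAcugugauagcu
miR-136: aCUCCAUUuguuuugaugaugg
miR-362-3p: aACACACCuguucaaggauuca
miR-671-5p: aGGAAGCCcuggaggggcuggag
miR-370: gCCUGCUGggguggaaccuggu
miR-129-5p: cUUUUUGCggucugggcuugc
miR-129-3p: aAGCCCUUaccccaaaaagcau
miR-224: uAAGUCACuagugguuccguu
miR-188-5p: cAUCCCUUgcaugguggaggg

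**Figure D3:**
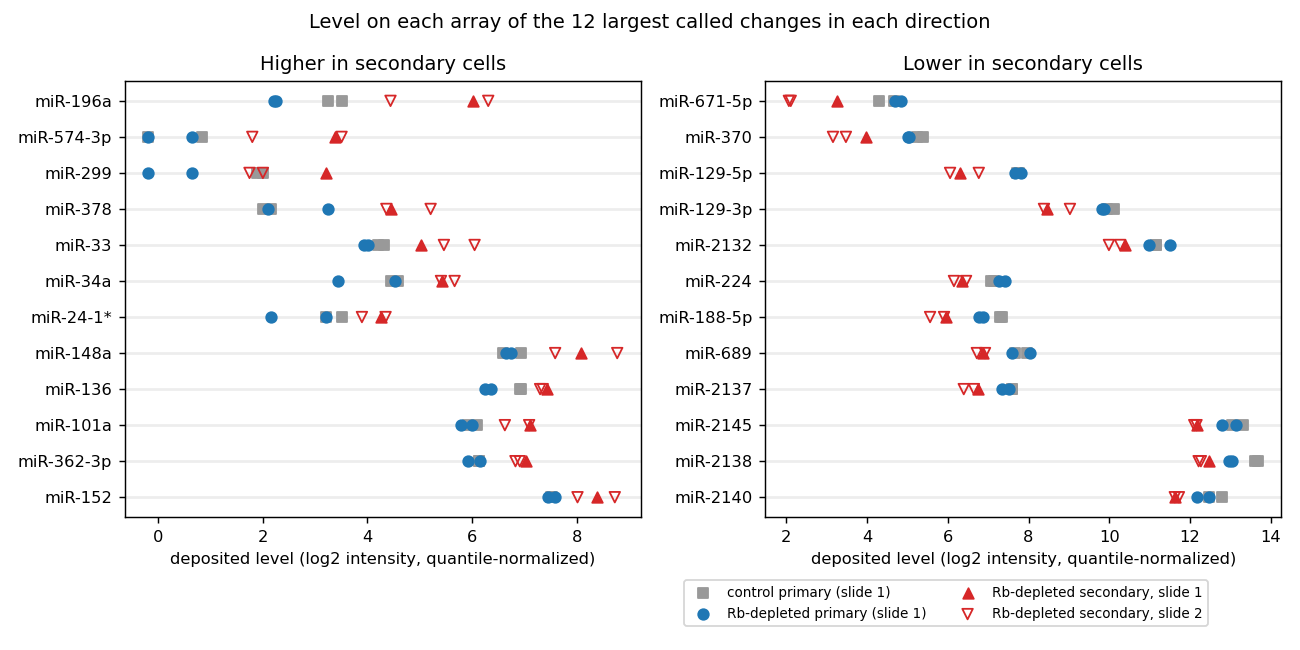
The deposited log2 level (horizontal axis) on each of the 7 arrays is shown for the 12 miRNAs with the largest called rise (left) and the largest called fall (right). Squares are control primary, circles Rb-depleted primary and triangles Rb-depleted secondary cells, filled for slide 1 and open for slide 2. Red triangles lie to one side of the blue circles in each row, while the squares lie among the triangles in the row of miR-299.

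The largest difference belonged to miR-196a, which is encoded between Hox genes and is known to repress Hox mRNAs. Rb-depleted primary cells had levels of 2.26 and 2.22 and secondary cells 6.02, 4.44 and 6.30, a difference of 3.35 (SE 0.56, adjusted p = 0.0172 by limma) that was 3.78 on slide 1 and 3.13 on slide 2. The scanner signal was 10.4 and 8.60 in primary cells, 59.9, 17.7 and 69.5 in secondary cells and 15.7 and 12.03 in control cells. Every secondary array was above every primary array on this scale as well, with a log2 difference of 2.14 before normalization. Its 2 genomic copies lie at chr11:96126478-96126579 and chr15:102803772-102803881 (NCBIM37), and the array does not tell the copies apart. Of 4 miRNAs of the Hox clusters it was the 1 that passed; miR-10a, miR-10b and miR-615-3p differed by 0.26, -0.17 and -0.26 with overlapping arrays.

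MiR-33 lies in an intron of Srebf2, a regulator of sterol synthesis, at chr15:82028552-82028620, and is known to repress the cholesterol exporter Abca1. Its level rose from 4.01 and 3.93 to 5.01, 6.04 and 5.46 (difference 1.53, SE 0.29, adjusted p = 0.0249 by limma). Secondary replicate 1, on slide 1, was the nearest to the primary arrays, with a difference of 1.04. MiR-378, known from the intron of a regulator of mitochondrial biogenesis, was at 3.25 and 2.11 in primary cells and at 4.44, 4.36 and 5.204 in secondary cells (difference 1.99, SE 0.41, adjusted p = 0.0307). Its signal before normalization was 10.96 and 7.75 against 18.3, 15.97 and 31.1, a log2 difference of 1.18.

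MiR-101, whose known targets include the histone methyltransferase Ezh2, rose in both its forms. MiR-101a was at 5.78 and 5.99 in primary cells and at 7.10, 6.62 and 7.08 in secondary cells, a difference of 1.04 (SE 0.18, adjusted p = 0.0172 by limma), or 1.21 on slide 1. MiR-101b, at 7.21 and 7.29 against 7.81, 7.51 and 7.81, differed by 0.46 (SE 0.12, adjusted p = 0.0465). The sequences shown above share a run of 15 bases, which starts 1 base later in miR-101b and so shifts its seed. The hairpins lie on different chromosomes, Mir101a at chr4:101019550-101019632 and Mir101b at chr19:29209769-29209865 in an intron of Rcl1. MiR-26a and miR-26b, which are also known to target Ezh2 and were listed with them, differed by 0.13 and 0.09 with overlapping arrays.

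Of 5 miRNAs in the list of the mesenchymal miR-199 and miR-214, 4 rose and 0 fell, with a median of 0.58. Both arms of miR-199a and of miR-214 can come from Dnm3os, on the strand opposite to Dnm3 (chr1:164147945-164153608), and 3 of these 4 rose. The miR-199a arms can also come from Mir199a-1 at chr9:21300939-21301008, opposite to an intron of Dnm2, and the array does not tell the copies apart. MiR-199b* is from another hairpin. MiR-199a-3p is among the 20 brightest miRNAs, at 12.10 on both primary arrays and at 12.78, 12.604 and 12.72 on the secondary arrays (difference 0.60, SE 0.08, adjusted p = 0.0146 by limma), with 0.68 on slide 1. The other arm, miR-199a-5p, was at 10.47 on both primary arrays and at 11.10, 10.95 and 11.10 (difference 0.58, adjusted p = 0.0146). MiR-199b* and miR-214* had differences of 0.68 and 0.40, while miR-214 had one of 0.21 with overlapping arrays (adjusted p = 0.290). Primary cells with Rb depleted were below control cells in miR-199a-3p, at 12.33 on both control arrays, and secondary cells were above them. The 5 miRNAs together held 1.91% and 1.84% of the summed signal of the table on the primary arrays, 2.5%, 2.35% and 2.57% on the secondary arrays and 2% and 2.2% on the control arrays. That share does not depend on the normalization between arrays, and the groups did not overlap in it. Of the 5 miRNAs in the share 4 had been called higher in the same data, so it is not separate support.

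MiR-143 and miR-145, which are cut from 1 transcript and are typical of smooth muscle and fibroblasts, were not both called. MiR-143 rose from 10.16 and 10.05 to 10.73, 10.47 and 10.98 (difference 0.62, adjusted p = 0.0465 by limma), with overlapping arrays before normalization, whereas miR-145 differed by -0.08 with overlapping arrays. Their difference was not tested.

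**Figure D4:**
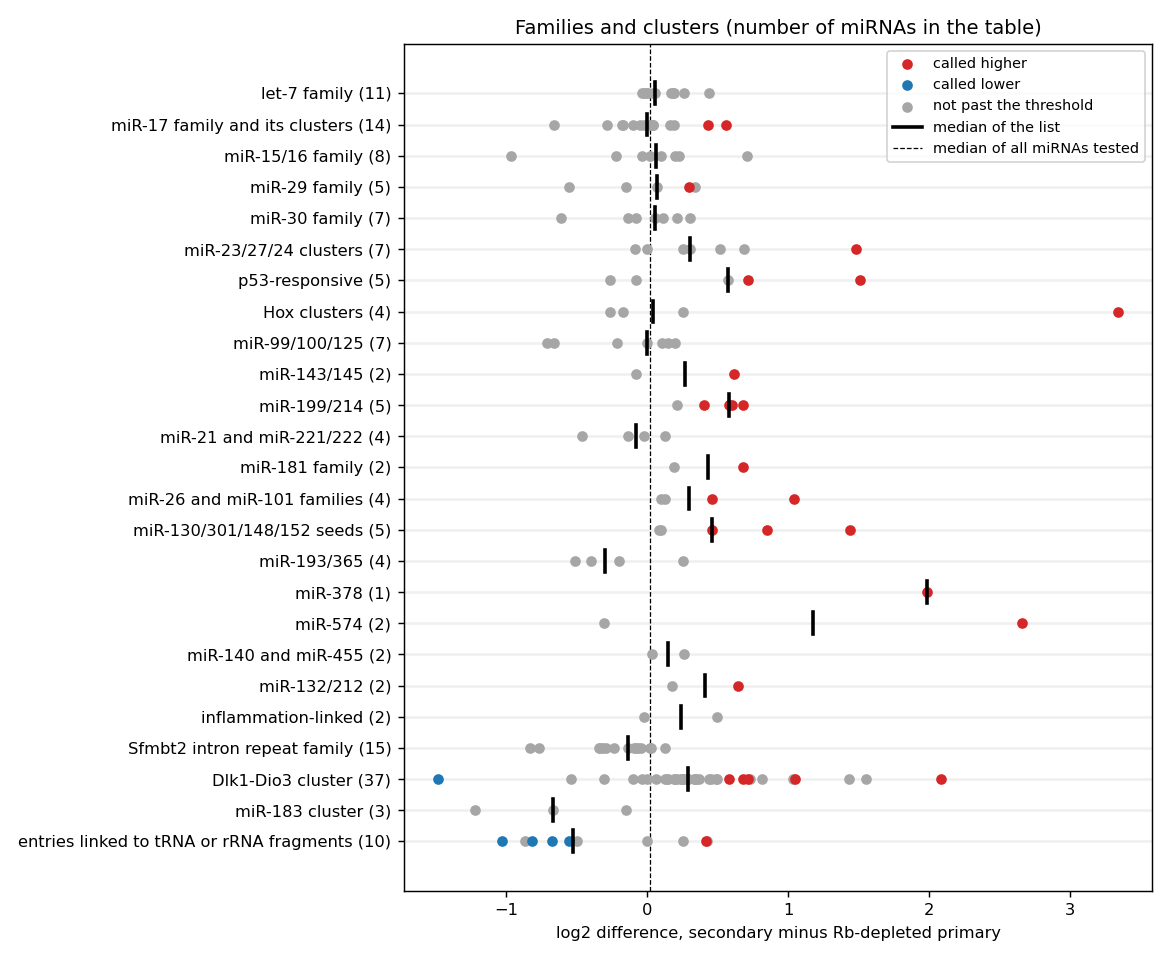
Each row is 1 family or cluster with its number of miRNAs in the table in parentheses, and each point is the log2 difference of 1 miRNA (secondary minus Rb-depleted primary cells, horizontal axis). Red points were called higher, blue points lower and grey points did not pass; the thick mark is the list's median and the dashed line the median of all miRNAs tested. The list of miR-199 and miR-214 has 4 red points of 5, the Dlk1-Dio3 list has 5 red points and 1 blue point of 37, and the list of tRNA or rRNA fragments has 4 blue points of 10.

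The Dlk1-Dio3 cluster, an imprinted locus with a long row of hairpins on mouse chromosome 12, gave 37 miRNAs of the table, of which 5 rose, a share near the 12.7% of all miRNAs, and 1 fell. Their median difference was 0.29, and 31 of the 37 differences were above 0, against 135 above and 117 below over all miRNAs tested. MiR-136 had the lowest adjusted p of all miRNAs tested (0.00521 by limma). It was at 6.36 and 6.24 in primary cells with Rb depleted, at 7.42, 7.34 and 7.29 in secondary cells and at 6.92 and 6.90 in control cells, so the primary cells were the lowest and the secondary cells the highest group. The difference of 1.05 (SE 0.08) passed in 19 of the 21 other fits that were made, ranging from 0.96 to 1.18. All fits reuse these arrays, and the 19 include fits on slide 1 alone, with 1 secondary array. With slide as a term or the replicate number as a block, miR-136 did not pass. The other arm of the miR-136 hairpin, miR-136*, had a difference of 1.55 but a wide spread in primary cells, at 4.86 and 3.29, and did not pass (adjusted p = 0.0613 by limma).

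Within the same locus miR-376c, miR-376a and miR-377 rose by 0.72, 0.68 and 0.58, and miR-299, described with the faint miRNAs, was the fifth. The level of miR-376a was 7.06 and 6.67 in primary cells and 7.66, 7.46 and 7.52 in secondary cells, and the control level of 7.56 on both arrays fell among the secondary values. In miR-376c the control arrays, at 6.06 and 6.24, lay below the secondary arrays, which were at 6.45, 6.42 and 6.49. MiR-370, from the Rian transcript at chr12:110856468-110856546, was the 1 miRNA of the locus that fell. Its level went from 5.01 and 5.04 to 3.99, 3.48 and 3.16, a difference of -1.49 (SE 0.24, adjusted p = 0.0172 by limma) that was -1.04 on slide 1 and -1.71 on slide 2. The log2 ratio of the signal of miR-136 to that of miR-370 within an array was 1.37 and 1.09 in primary cells and 3.56, 3.94 and 4.08 in secondary cells, with 1.47 and 1.77 in control cells. These miRNAs had been called in opposite directions, so the direction of their ratio is not separate support. The list depends on a single array for its size, since its median difference was 0.12 without Rb-depleted primary replicate 2 and 0.53 without replicate 1.

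A second locus had calls in both directions. Mir188, Mir362, Mir500 and Mir532 lie in introns of Clcn5 on the X chromosome (chrX:6814809-6825623, on the minus strand). MiR-362-3p rose from 6.15 and 5.91 to 7.02, 6.82 and 6.90 (difference 0.89, or 0.99 on slide 1, SE 0.11, adjusted p = 0.0146 by limma), and miR-362-5p from 4.36 and 4.24 to 4.90, 4.63 and 4.70 (difference 0.44, adjusted p = 0.0413). MiR-188-5p, from a hairpin of the same intron group, fell from 6.77 and 6.88 to 5.95, 5.91 and 5.56 (difference -1.02, or -0.87 on slide 1, SE 0.14, adjusted p = 0.0146), and control cells were higher still at 7.34 and 7.29. Of the other miRNAs there, miR-500 (7.02 and 7.05 against 7.08, 7.02 and 7.02), miR-532-3p (difference 0.51, with overlapping arrays) and miR-532-5p (difference -0.18) did not pass. The log2 ratio of the signal of miR-362-3p to that of miR-188-5p was -0.62 and -0.97 on the primary arrays and 1.16, 0.85 and 1.35 on the secondary arrays. One miRNA of this pair had been called higher and the other lower, so the direction of the ratio followed from the calls and is not separate support. Before normalization the arrays of miR-362-5p overlapped.

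Among the falls, miR-671-5p had the largest difference in the deposited values, -2.30 (SE 0.39, adjusted p = 0.0172 by limma). Its level was 4.70 and 4.84 in primary cells and 3.25, 2.11 and 2.07 in secondary cells, with scanner signals of 27.5 and 27.2 against 6.396, 5.78 and 6.79. On slide 1 the fall was 1.52 in the deposited values. Its single probes differed by -0.79 to -1.21 before normalization, less than the probes of miR-129-3p at -1.47 and -1.63. The first rank of miR-671-5p therefore holds for the faint summed signal and not for its probes. Both arms of miR-129, a miRNA best known from the nervous system, fell together: miR-129-3p from 9.81 and 9.87 to 8.46, 8.38 and 9.03 and miR-129-5p from 7.66 and 7.81 to 6.30, 6.06 and 6.77. Their differences were -1.22 (SE 0.21, adjusted p = 0.0172) and -1.36 (SE 0.21, adjusted p = 0.0171), and the control arrays, at 9.95 and 10.10 and at 7.78 and 7.72, lay with the primary cells. Of 7 neural marker miRNAs on the array, 5 were detected on all 5 arrays, and their summed signal, led by the miR-129 arms, was 1264 to 1346 in primary and 476 to 636 in secondary cells. The other 3, miR-128, miR-9 and miR-9*, had differences of 0.03, 0.00 and -0.23 with overlapping arrays. On slide 1 the arms differed by -1.38 and -1.43, and secondary replicate 3, on slide 2, was the nearest to the primary level in both. MiR-224, from an intron of Gabre at chrX:69506370-69506451, fell from 7.42 and 7.27 to 6.36, 6.45 and 6.15 (difference -1.02, or -0.98 on slide 1, SE 0.11, adjusted p = 0.0146).

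Both arms of 32 hairpins were measured, and 25 of these pairs had differences of the same sign. Both arms passed in 3 hairpins, those of miR-129, miR-199a and miR-362, each in 1 direction. MiR-129-5p can also come from Mir129-1 at chr6:28972619-28972691, and the array does not tell the copies apart. In 5 more hairpins 1 arm passed, and the other arm had the same sign in 3 of them. The exceptions were miR-574 and miR-29b. MiR-29b, an antifibrotic miRNA that represses collagen mRNAs, rose by 0.30 (adjusted p = 0.0411 by limma) from 13.30 on both primary arrays to 13.60 on all 3 secondary arrays, equal values that the rank-based normalization produced, and its arrays overlapped before normalization. MiR-29b*, from 7.45 and 7.60 to 7.05, 7.20 and 6.67, had a difference of -0.55 and an adjusted p of 0.0702.

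Several entries of the miRNA catalogue of that time have since been linked to pieces of tRNA or ribosomal RNA, and 10 such entries were in the table. Of these, 4 fell and 1 rose, and the median of the 10 was -0.53 against 0.02 over all miRNAs. MiR-2132 fell from 10.98 and 11.51 to 10.38, 9.99 and 10.27 (difference -1.03, adjusted p = 0.0236 by limma), miR-2145 from 13.14 and 12.78 to 12.16, 12.16 and 12.10 (difference -0.82, adjusted p = 0.0172) and miR-2138 from 13.03 and 12.96 to 12.48, 12.27 and 12.21 (difference -0.68, adjusted p = 0.0159). In each of these 3 every secondary array was below every primary and control array. MiR-2133 had a difference of -0.56 and passed as well. Outside the list, miR-689 fell by 0.98, miR-2137 by 0.84 and miR-2140 by 0.66. MiR-720, linked to a tRNA, rose by 0.42 in the deposited values. It was the third brightest miRNA of the table on all 7 arrays and held 6.15% and 5.48% of the summed signal in primary cells and 7.54%, 6.65% and 7.60% in secondary cells, with 6.77% and 5.74% in control cells, where the ranges of secondary and control cells overlapped. With quantile normalization of the table alone its difference was 0.00.

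Among the other lists, 1 of 2 miRNAs rose in the miR-181 family (miR-181a, 3.89 and 4.01 against 4.72, 4.58 and 4.58, difference 0.68, adjusted p = 0.0146 by limma) and in the pair of miR-132 and miR-212 (miR-132, difference 0.64, adjusted p = 0.0465). In the miR-23/27/24 clusters 1 of 7 rose, miR-24-1* (difference 1.48), a share near the 12.7% of all miRNAs. MiR-23b and miR-27b, at 0.69 and 0.52, did not pass. No member passed among 11 of the let-7 family (median 0.05), 8 of the miR-15/16 family (0.06), 7 of the miR-30 family (0.06), 7 of miR-99, miR-100 and miR-125 (0.00), 4 of miR-21, miR-221 and miR-222 (-0.08), 4 of miR-193 and miR-365 (-0.30), 15 of the Sfmbt2 intron repeat family (-0.14), 3 of the miR-183 cluster (-0.67), the 2 arms of miR-140 (0.15) or the 2 inflammation-linked miRNAs (0.24). The miR-200 family and miR-205 had 0 miRNAs in the table. The study chose its listed miRNAs by testing both Rb-depleted groups against control cells, which is a different comparison. Of the miRNAs that the study lists for Rb status, miR-29b passed here, while miR-18a (0.16), miR-25 (-0.18), miR-140 (0.26), miR-140* (0.03), miR-337-3p (0.25), miR-1839-3p (0.21) and miR-1839-5p (1.86) did not. The last is faint, with signals of 6.35 and 5.82 against 10.8, 7.32 and 9.51, and its difference was 0.58 before normalization and 0.70 with the table normalized alone. It passed in 4 other fits. MiR-140 was at 9.08 and 9.10 in Rb-depleted primary cells, 9.37, 9.44 and 9.25 in secondary cells and 9.76 on both control arrays, so the secondary arrays lay between the other groups (adjusted p = 0.0702 by limma for the difference from primary cells). By RT-qPCR, scaled to an internal control RNA, the paper reports a stronger fall of both arms in Rb-depleted secondary than in primary cells. The deposited values, scaled by quantiles, did not show that order. Before normalization the difference of secondary from primary cells was -0.26 for miR-140*, with overlapping arrays, and 0.10 for miR-140.

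The secondary arrays also differed among themselves. The median SD over the miRNAs of the table was 0.15 among the 3 secondary arrays and 0.11 between the 2 Rb-depleted primary arrays. Secondary replicate 2 was the nearest of the 3 to the primary cells in 19 of the 32 rises but in 3 of the 19 falls, where replicate 1 was the nearest in 12. Of the 236 miRNAs with all 5 deposited values at 2.5 or over, the widest SD was that of miR-450a-5p, at 5.23, 6.24 and 3.64 in replicates 1, 2 and 3. Its neighbours on the X chromosome (chrX:50401331-50407526), miR-503 at 5.03, 5.99 and 4.07 and miR-322 at 8.72, 9.63 and 8.07, had the same order of replicates, and none of the 3 passed, their adjusted p by limma being 0.663, 0.248 and 0.747. MiR-183, at 5.60, 6.74 and 5.44, and miR-96, at 7.64, 8.59 and 7.42, were also highest in replicate 2. Rb-depleted primary cells had their own wide miRNA in miR-146a, at 3.68 and 7.10, which left its difference at -0.02 with an SE of 1.04.

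The deposited differences of faint miRNAs need the scanner signal beside them. Quantile normalization ran over all 718 features of the array, including undetected ones, and the arrays differ in how many miRNAs were detected, so a faint signal can receive very different numbers on 2 arrays. MiR-299 had a deposited difference of 2.09 (adjusted p = 0.0411 by limma), yet its signal was 5.32 and 4.13 in primary cells and 5.62, 4.99 and 4.78 in secondary cells. These groups overlapped, with a log2 difference of 0.13 before normalization and 0.07 when the miRNAs of the table were normalized alone. MiR-574-3p had a deposited difference of 2.66 (adjusted p = 0.0413), with signals of 4.45 and 4.60 against 7.07, 4.01 and 10.9, which also overlapped and differed by 0.58. MiR-24-1* kept separate groups, 10.8 and 8.09 against 16.2, 11.7 and 17.6, but its difference was 0.67 before normalization in place of 1.48. In all, 24 of the 32 rises and all 19 falls had separate groups in the unnormalized signal. On that scale the median difference was -0.18, a shift toward the falls, so the counts of the 2 directions are not compared. The share over all miRNAs was not counted there. The 8 rises that overlapped there were miR-143, miR-199a-5p, miR-19b, miR-299, miR-29b, miR-362-5p, miR-574-3p and miR-720. Under 4 ways of scaling the arrays to each other (20.2%, 13.5%, 24.2% and 21% of all miRNAs passing) 19 rises and 9 falls passed every time. Without any normalization, when 17.9% of all miRNAs passed, 9 of these rises and all 9 falls still passed: miR-101a, miR-136, miR-148a, miR-152, miR-196a, miR-33, miR-34a, miR-362-3p and miR-378 upward, and miR-129-3p, miR-129-5p, miR-188-5p, miR-2132, miR-2137, miR-224, miR-370, miR-671-5p and miR-689 downward.

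**Figure D5:**
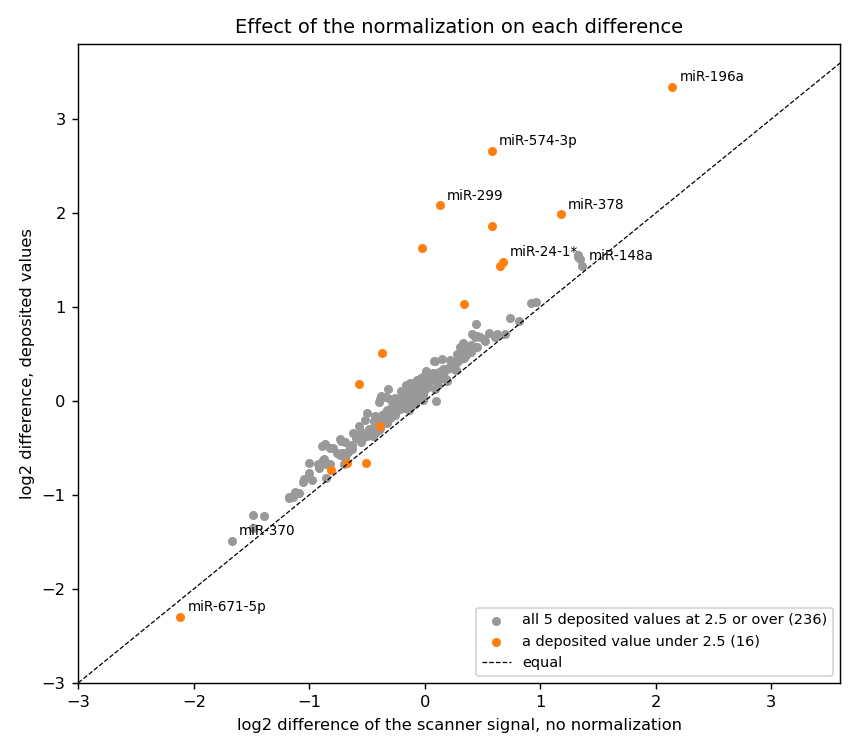
The log2 difference in the deposited values (vertical axis) is plotted against that of the scanner signal before normalization (horizontal axis) for each miRNA of the table. Orange points are the 16 with a deposited value under 2.5 on at least 1 of the 5 arrays. Grey points run along the dashed line of equal values at a near constant offset, and miR-299, miR-574-3p, miR-196a and miR-378 stand well above it.

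Outside the table lay 444 mouse miRNAs, of which 384 were detected on no array. Of the rest, 8 were detected on both Rb-depleted primary arrays and on no secondary array, among them miR-126-3p, known from endothelium, with signals of 9.10 and 7.02, and miR-1306-3p with 34.1 and 31.7. Both control arrays also detected these 2. The opposite pattern was met by 1 miRNA, miR-32-5p, at 18.4, 13.6 and 17.4 on the secondary arrays and at 5.12 and 8.02 in control cells. Secondary replicate 1 had the fewest detected miRNAs and the highest lowest detected signal (5.37, against 4.18 and 3.38 on the primary arrays), and the part of that limit in these counts was not tested.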

How the data were processed

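MiRNA expression was measured on Agilent mouse miRNA arrays (Rel. 15.0), 1 RNA preparation per array, with an RNA integrity number of 10. The authors deposited log2 values of the total gene signal, quantile-normalized in GeneSpring, for 252 mouse miRNAs and 11 control rows (left out here). They also deposited the scanner output with the intensity of each spot and miRNA. Labels name Agilent Feature Extraction 10.7.3.1 and the file headers 11.0.1.1. Quantile normalization of 718 scanner features gave the deposited values to within 3.2e-06, and this match joined table names to scanner names. Undetected miRNAs have a signal of 0.1 there.

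The deposited values were fitted in R 4.3.3 with limma 3.58.1, using 3 group means on all 7 arrays and empirical Bayes moderation, with Benjamini-Hochberg adjustment over 252 miRNAs. Named miRNAs are the 12 largest differences in each direction among those past an adjusted p of 0.05 with separate arrays, up to 4 members of each list, and those the study lists. MiR-370's neighbours, miR-500 and miRNAs named for spread or overlap were chosen after their values were seen. Members and lists were chosen with earlier results of these data known. Positions are from GENCODE for NCBIM37. Alternatives were other scalings, no normalization, no filter on detection, other error models, slide and each array left out. The fit was tested on simulated data. Tables were made in Python 3.11.15 (pandas 2.3.3, numpy 2.4.6).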

Additional observations from a re-analysis of the deposited data

Results flagged for a closer look

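A pair of results outside the table were marked for a closer look because a miRNA without a detected signal in control cells was detected on all 3 arrays of secondary cells. MiR-146b-5p had signals of 56.2, 28.7 and 146.4 in secondary cells, the lowest being 28.72, against 11.3 and 12.8 in Rb-depleted primary cells, and it was detected on neither control array. MiR-455-3p had signals of 11.4, 14.4 and 12.3 in secondary cells, the lowest being 11.44, and was detected on 1 of the 2 Rb-depleted primary arrays, at 8.67. Neither difference was tested. With groups of 2 and 3 arrays, no array was checked as an outlier.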

How the results depend on the processing

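Against 51 miRNAs as deposited, the number past the threshold was 0 with slide as a term, 29 on slide 1 alone, 19 with the 5 arrays of Rb-depleted cells alone and 15 without moderation. Slide 1 held 1 secondary array, so the fit on slide 1 alone holds no spread among secondary cultures. Nothing is read from the count of that fit. As deposited, the number of miRNAs was 93 at an adjusted p of 0.1 and 17 when a 2-fold difference was also required. Leaving out 1 array gave 2 to 66: 2 without Rb-depleted primary replicate 2, 30 without replicate 1, 19 without either control array, and 17, 66 and 18 without secondary replicates 1, 2 and 3. Quantile normalization of the table alone and a slide term together, a setting added after seeing the data, gave 4, namely miR-136, miR-199a-3p, miR-370 and miR-671-5p. Same-numbered replicates share only a number: the correlation of their deviations was 0.04 for pair 1 and -0.14 for pair 2, and with the replicate number as a block 0 miRNAs passed, with 68 at an unadjusted p under 0.05. Scaling changed the balance of directions: 32 of 51 calls (62.7%) were higher as deposited, 26 of 61 (42.6%) with the 75th percentile of all mouse miRNAs and 10 of 45 (22.2%) without normalization, where the median difference was -0.18. Counts under the other scalings, no filter, array weights and trend with robust moderation were between 34 and 56. No named called miRNA changed direction in any fit. The causes were not tested.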
